A study of Mus musculus with 90 samples.

Results

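The response to styrene that differed with Cyp2f2 genotype, after 4 weeks of inhalation at 120 ppm, was measured as a difference of differences. For each gene, the change from air to 120 ppm in wild-type (WT) lung was taken, and the mean of the same change in 2 lines without Cyp2f2 was subtracted from it. The rule used the design alone and no measured value, and it took in all 17097 genes and 30 of the 90 arrays, 5 animals in each of 6 groups. Here it is called the strain interaction. A positive value means that WT lung rose more, or fell less, than the lines without Cyp2f2. The lines may also differ from WT in other ways, and such differences cannot be told apart from the loss of Cyp2f2.

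All groups were adult male C57BL/6 mice from 1 supplier, whole lung was profiled on 1 Affymetrix HT MG-430 PM array per animal, and values are log2 intensities. WT mice carried the intact gene. Knockout (KO) mice lacked Cyp2f2, and transgenic (TG) mice lacked it too and carried human transgenes that the series title and design text describe as CYP2F1 humanized and as 2F1, SA13 and 2B6; the sources used here do not name the promoter that drives them, and expression of the human genes was not checked. Animals breathed air only (0 ppm) or 120 ppm styrene for 6 hours a day on 5 days a week for 4 weeks and were killed on the morning after the last exposure, at an hour the labels do not give; the groups exposed to 40 ppm for 4 weeks, and all groups exposed for 1 week, were other animals kept to the same schedule. No batch is given in the labels, and p-values measure the spread between these animals, whose number limits the precision.

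Styrene is a solvent and plastics monomer. In mouse airways it is oxidised to styrene oxide and to ring-oxidised products, and Cyp2f2, a cytochrome P450 held at high levels in the club cells of the bronchioles, is the main enzyme of that step. Club cells are the secretory cells of the small airways; they divide when their neighbours are injured, and mouse lung is known to be more sensitive to styrene than the lungs of several other species.

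The targeted gene separated the strains but did not read 0 in the lines without it. Cyp2f2 stood at 13.27, 13.26, 13.21, 13.25 and 13.39 in WT controls, animals 1 to 5, and at 11.89 ± 0.10 in KO controls (mean ± SD, n = 5), with TG controls at 11.84. Every WT animal was higher than the mean of either other line, and the control difference was 2.65-fold; the sources used here do not say whether the probe set lies in the deleted stretch. In exposed WT lung the Cyp2f2 level was 13.33, 13.14, 13.17, 13.22 and 13.09, overlapping the controls, and the strain interaction was -0.13 (unadjusted p = 0.26). The club cell secretoglobins differed little. Scgb1a1 was 13.79 in WT controls and 13.76 after exposure, with an interaction of -0.06, and Scgb3a2 had an interaction of 0.01. Markers of the labelled tissue were high throughout, the mean over 14 club cell markers lying between 9.87 and 10.55 and that over 14 alveolar type II markers between 11.10 and 11.33 in all 30 animals.

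Array medians of the 30 animals lay between 4.55 and 4.84, and correlations between arrays between 0.981 and 0.997. A group mean under 4.42, the lowest array median of the series, is called dim below, because a value there may lie near the floor of the array and its fold change is then compressed. The poly-A controls added to the RNA differed slightly between groups, with means from 6.90 to 7.21, and 3′ to 5′ differences of actin probe sets had group means from 0.388 to 0.450.

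In the strain interaction, 8 of 17097 genes passed limma's moderated test at an adjusted p (Benjamini-Hochberg over all genes) under 0.05, which is 0.0468%. Higher in WT were Ces1g, Serpind1, Il1f9, Gm8126 and Kng1 (5 genes, 0.0292%), and lower were Pon1, Mfsd4a and Itih2 (3 genes, 0.0175%). At an unadjusted p under 0.05 there were 608 genes, 3.56% of all, with a median over all genes of -0.01. The 8 interactions were 1.82-fold or more. All 8 also passed in the change within WT mice, which the interaction contains, while their changes were between -0.14 and 0.19 in KO mice and between -0.27 and 0.14 in TG mice, and no change of these genes passed in either line. The count was 4 without WT control animal 1 and 5 without WT 120 ppm animal 2; it was 31 with array weights, 21 in a fit of the compared arrays alone, and 0 when genes with a mean under 5.05 were left out, a filter that removed 7 of the 8.

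**Figure D1:**
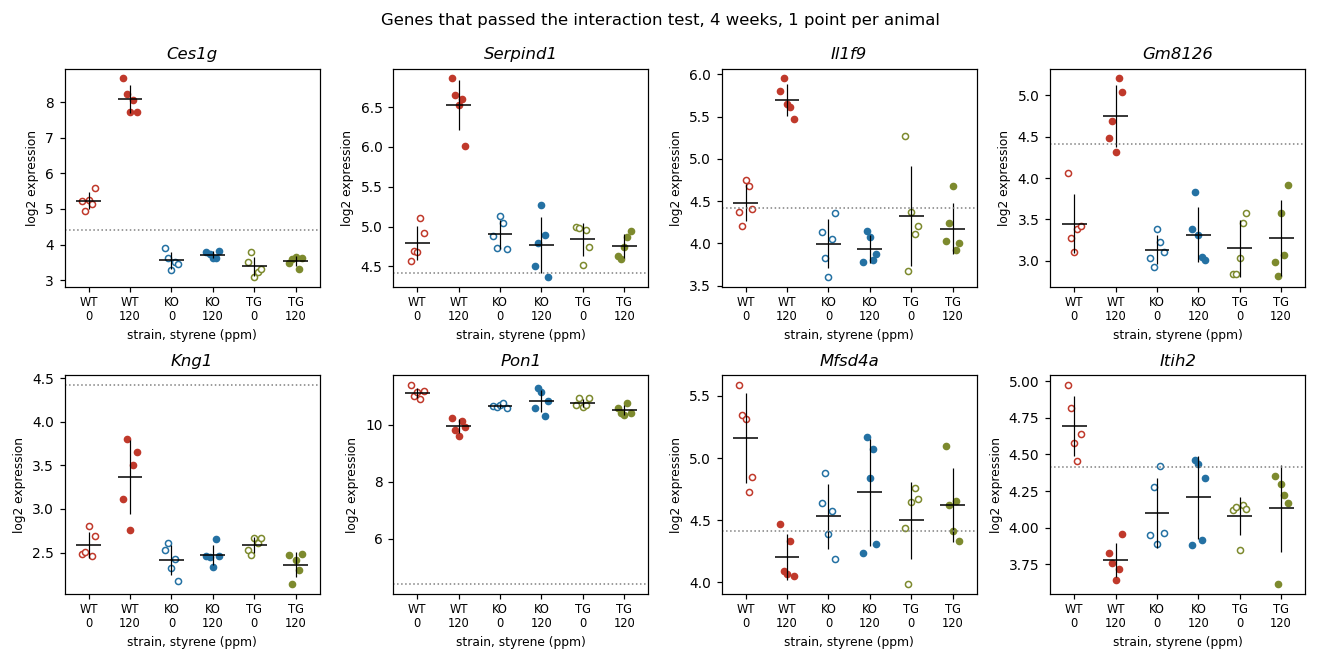
Log2 intensity (y axis) of the 8 genes that passed in the strain interaction, 1 panel per gene, with 1 point per animal in the 6 groups (x axis: WT, KO and TG at 0 and 120 ppm, 4 weeks), the mean ± SD beside the points and a dotted line at the dim level of 4.42. Exposed WT animals stand apart from all 25 others for Ces1g, Serpind1, Il1f9, Gm8126 and Pon1, whereas for Mfsd4a and Itih2 they fall from a higher WT control level into the range of the KO and TG animals. For Itih2 the low end of that range is TG 120 ppm animal 2 at 3.62, the next of those animals standing at 3.85.

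Among the 8 genes, the largest response was that of Ces1g, a carboxylesterase that hydrolyses esters, triglycerides and drugs. Its level in WT controls was 5.21, 4.95, 5.26, 5.14 and 5.60, and in exposed WT lung 8.67, 8.23, 7.74, 8.08 and 7.72. All 5 exposed WT animals lay above all 25 others, with no overlap. In KO mice it was 3.91, 3.62, 3.29, 3.49 and 3.44 in air and 3.79, 3.73, 3.61, 3.62 and 3.81 at 120 ppm, and in TG mice 3.51, 3.80, 3.09, 3.22 and 3.30 in air and 3.48, 3.60, 3.64, 3.30 and 3.61 at 120 ppm. Both lines were dim, and their exposed animals overlapped their controls. WT Ces1g rose 7.23-fold (log2 change 2.85, adjusted p = 7.2e-18), and the interaction was 2.70 (SE 0.26, 95% interval 2.19 to 3.21, adjusted p = 2.9e-12). Ces1g was already higher in WT than in the other lines before exposure, by 3.40-fold (log2 difference 1.76, adjusted p = 3.2e-11), so the exposure widened a difference present in air.

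Ces1 genes lie side by side in the genome and are similar in sequence, so probes for 1 member may read another. Of 5 measured members, Ces1g alone passed. Ces1c, a dim gene, had a WT change of 0.79 (adjusted p = 0.015) and an interaction of 0.81 (adjusted p = 0.35), while Ces1d was at 0.09, Ces1e at 0.31 and Ces1f at -0.66. Ces1f and Ces1e differed between the strains in air, with log2 differences of 3.14 (adjusted p = 1.1e-10) and 0.63 (adjusted p = 0.0062), WT being higher. Over all genes, 26 (0.152%) passed in that comparison of WT with the other lines in air.

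Serpind1, or heparin cofactor II, is an inhibitor of thrombin that is made mainly by liver. It stood at 4.56, 4.70, 4.68, 5.11 and 4.92 in WT controls and at 6.86, 6.65, 6.53, 6.60 and 6.01 in exposed WT lung. The groups did not overlap, and the 5 exposed WT animals were above all 25 others. Exposed KO animals were at 4.50, 4.79, 5.27, 4.90 and 4.37 and exposed TG animals at 4.63, 4.59, 4.75, 4.87 and 4.95, among the values of their controls (means 4.90 and 4.84). Serpind1 rose 3.33-fold in WT lung (adjusted p = 2.6e-12), with an interaction of 1.85 (SE 0.21, 95% interval 1.44 to 2.25, adjusted p = 1.1e-09). Unlike Ces1g it did not differ detectably between the strains in air, the control difference being -0.08. Serpinc1, the gene of the related thrombin inhibitor antithrombin, was dim and had an interaction of -0.20 (unadjusted p = 0.22).

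The promoter windows of these 2 genes and of Pon1, the lowest of the 8, are shown because among the 8 they had the largest interactions in each direction. They run from 250 bases before to 50 bases after the listed start, 5′ to 3′ on the gene's strand, from RefSeq, build GRCm38.p6, and lie at chr8:93337160-93337459 (minus strand), chr16:17331121-17331420 (plus strand) and chr6:5193897-5194196 (minus strand). Capitals mark a match to TTATGTAA (D-box) in Ces1g, to TGACNNNGC (antioxidant response element) in Serpind1 and to TTGCNNAA (C/EBP-type) in Pon1.
Ces1g: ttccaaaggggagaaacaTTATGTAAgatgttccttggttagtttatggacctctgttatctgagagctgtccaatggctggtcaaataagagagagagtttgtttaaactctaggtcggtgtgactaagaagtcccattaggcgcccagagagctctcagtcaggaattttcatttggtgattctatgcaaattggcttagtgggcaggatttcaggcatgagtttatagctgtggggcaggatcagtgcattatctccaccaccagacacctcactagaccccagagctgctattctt
Serpind1: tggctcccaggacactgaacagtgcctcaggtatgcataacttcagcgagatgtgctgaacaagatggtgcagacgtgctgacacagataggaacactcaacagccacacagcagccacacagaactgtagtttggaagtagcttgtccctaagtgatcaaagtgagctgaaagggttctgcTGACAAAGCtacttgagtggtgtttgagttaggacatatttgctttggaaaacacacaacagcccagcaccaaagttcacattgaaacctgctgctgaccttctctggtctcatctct
Pon1: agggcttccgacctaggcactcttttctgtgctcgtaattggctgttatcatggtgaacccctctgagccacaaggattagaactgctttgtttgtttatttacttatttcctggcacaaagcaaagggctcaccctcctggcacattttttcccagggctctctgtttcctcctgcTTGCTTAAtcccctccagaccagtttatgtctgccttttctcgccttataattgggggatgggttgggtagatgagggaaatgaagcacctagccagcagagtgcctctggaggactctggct
The matches begin 232, 68 and 73 bases before the start. On either strand, those letters occur in 0.938%, 12.4% and 10.8% of 32851 mouse promoter windows of the same length. A match is a description of the letters and no evidence of binding. Of the 8 genes, 7 had a window, and among these 1 held the D-box, 1 the antioxidant response element and 2 the C/EBP-type letters; 1 held CACGTG (E-box) and 1 TAGGTCA (RORE core), letters present in 7.15% and 2.61% of all windows. In each of the windows printed above, the marked motif was the only one of these 5 to match.

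Il1f9 encodes IL-36 gamma, a cytokine of the interleukin-1 family that epithelial cells release. WT controls were at 4.38, 4.21, 4.75, 4.67 and 4.41 and exposed WT animals at 5.81, 5.95, 5.64, 5.61 and 5.47, all above the 25 other animals. One TG control, animal 1, stood at 5.27 among TG controls that were otherwise between 3.67 and 4.37. Il1f9 rose 2.32-fold in WT lung (adjusted p = 0.0008), and its interaction was 1.32 (SE 0.28, 95% interval 0.76 to 1.87, adjusted p = 0.024). None of the 9 other interleukin-1 family ligands on the array passed; Il33 was at 0.39, Il1b at -0.16 and Il1a at -0.28. The call was lost, with an adjusted p of up to 0.0986, without WT control animal 1 or 2, KO control animal 5, TG control animal 1, or WT 120 ppm animal 1 or 2.

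Gm8126 is a predicted gene whose function is not described here. It was dim in all groups but the exposed WT mice, which stood at 4.48, 4.69, 4.31, 5.21 and 5.05 against 4.06, 3.27, 3.10, 3.38 and 3.42 in WT controls. No exposed WT animal overlapped any of the 25 others. The WT rise was 2.46-fold (adjusted p = 5.5e-07) and the interaction 1.15 (SE 0.22, adjusted p = 0.0065), a call lost in a fit of the compared arrays alone (adjusted p = 0.0700).

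Kng1 encodes kininogen, the precursor of bradykinin, and was dim in all 6 groups. Exposed WT animals were at 3.12, 3.80, 2.76, 3.51 and 3.65 and WT controls at 2.48, 2.51, 2.80, 2.46 and 2.69, so that animal 3 lay among the controls and the other 4 above all 25. The WT change was 1.72-fold (adjusted p = 0.00019) and the interaction 0.86 (SE 0.17, adjusted p = 0.0077), lost without WT 120 ppm animal 2 (adjusted p = 0.0673). A second Kng1 probe set had an interaction of 0.20 (unadjusted p = 0.078). All of these levels lie near those of 23 nonspecific control probe sets, whose means ran from 2.00 to 4.91.

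Pon1, paraoxonase 1, is an esterase and lactonase bound to high-density lipoprotein in blood, and it was the only bright gene among the 8. WT controls were at 11.39, 11.01, 11.15, 10.92 and 11.18 and exposed WT animals at 10.24, 9.83, 9.63, 10.13 and 9.92. The exposed WT animals were below all 25 others. KO animals were at 10.59, 11.31, 11.15, 10.32 and 10.86 after exposure and between 10.58 and 10.79 in air; TG animals were at 10.61, 10.43, 10.34, 10.78 and 10.41 after exposure and between 10.64 and 10.94 in air. In WT lung Pon1 fell 2.27-fold (log2 change -1.18, adjusted p = 6.5e-05), and its interaction was -1.13 (SE 0.24, 95% interval -1.61 to -0.66, adjusted p = 0.024). Without WT control animal 1 or 3, WT 120 ppm animal 2 or 3, or KO 120 ppm animal 2 the adjusted p rose to as much as 0.0816. Its relatives Pon2 and Pon3 had interactions of 0.01 and 0.21, and neither passed. Because whole lung was measured, fewer cells of a type and less RNA per cell cannot be told apart for this or any other gene.

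Mfsd4a, a membrane transporter of the major facilitator family, and Itih2, a heavy chain of the inter-alpha-trypsin inhibitors that bind hyaluronan in matrix, had a different form. Mfsd4a was at 5.58, 5.35, 5.32, 4.72 and 4.85 in WT controls and at 4.47, 4.09, 4.07, 4.33 and 4.06 in exposed WT animals. Itih2 was at 4.97, 4.82, 4.58, 4.46 and 4.64 in WT controls and at 3.83, 3.76, 3.64, 3.72 and 3.95 after exposure. For both genes the exposed WT animals lay below all WT controls but inside the range of the KO and TG animals, Itih2 being dim in 5 of 6 groups and Mfsd4a in 1. For Itih2 that range was set by TG 120 ppm animal 2, at 3.62; the next lowest of those animals stood at 3.85. In air, Itih2 was higher in WT than in the other lines by 0.60 (adjusted p = 0.042), a call kept in only 4 of 15 fits that left out 1 control; the difference of Mfsd4a was 0.65 (adjusted p = 0.058). Mfsd4a fell 1.95-fold in WT lung, with an interaction of -1.12 (SE 0.22, adjusted p = 0.011). Itih2 fell 1.88-fold, with an interaction of -0.99 (SE 0.20, adjusted p = 0.013). Both interactions were lost without WT control animal 1 (adjusted p up to 0.0738). A second Mfsd4a probe set gave -0.53. Among 5 measured Itih genes, Itih4 was at 0.55 and Itih5 at -0.75, and neither passed.

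Set against each line without Cyp2f2 on its own, fewer genes passed. Against KO mice there were 3 (0.0175%): Ces1g at 2.69 and Serpind1 at 1.87 were higher in WT, and Pon1 at -1.35 was lower (1 gene, 0.00585%, adjusted p = 0.030). The Pon1 call against KO was kept in 9 of 20 fits that left out 1 animal (adjusted p up to 0.149). It was lost when genes with a mean under 5.05 were left out (adjusted p = 0.0563). Against TG mice there were 5 (0.0292%), all higher: Ces1g at 2.71, Serpind1 at 1.82, Gm8126 at 1.17 (adjusted p = 0.041), Kng1 at 1.00 (adjusted p = 0.0084) and Kcnmb4, a subunit of calcium-activated potassium channels, at 0.99 (adjusted p = 0.041). Against TG the Kcnmb4 call was kept in 4 of 20 fits that left out 1 animal (adjusted p up to 0.172). It was lost under the same filter on the mean and with the replicate number as a block (adjusted p up to 0.127). The Gm8126 call against TG was kept in 7 of 20 (adjusted p up to 0.193) and lost in a fit of the compared arrays alone (adjusted p = 0.333). That of Kng1 was lost without WT 120 ppm animal 2 (adjusted p = 0.0782), with the median over its probe sets and in a fit of the compared arrays alone (adjusted p up to 0.0817). For Pon1 the values were -1.35 against KO and -0.91 against TG (adjusted p = 0.74). These comparisons share the WT animals. The TG and KO responses themselves, compared directly, gave 0 genes by limma and 359 at an unadjusted p under 0.05 (2.1%); for Pon1 the TG response minus the KO response was -0.44 (unadjusted p = 0.12) and for Ces1g -0.02. That no gene passed does not show that the human transgenes left the response as it is without them. The calls against TG fell to 2 without WT 120 ppm animal 2 and to 3 in 8 other cases that left out 1 animal, whereas Ces1g and Serpind1 passed in every one of them and in both comparisons.

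**Figure D2:**
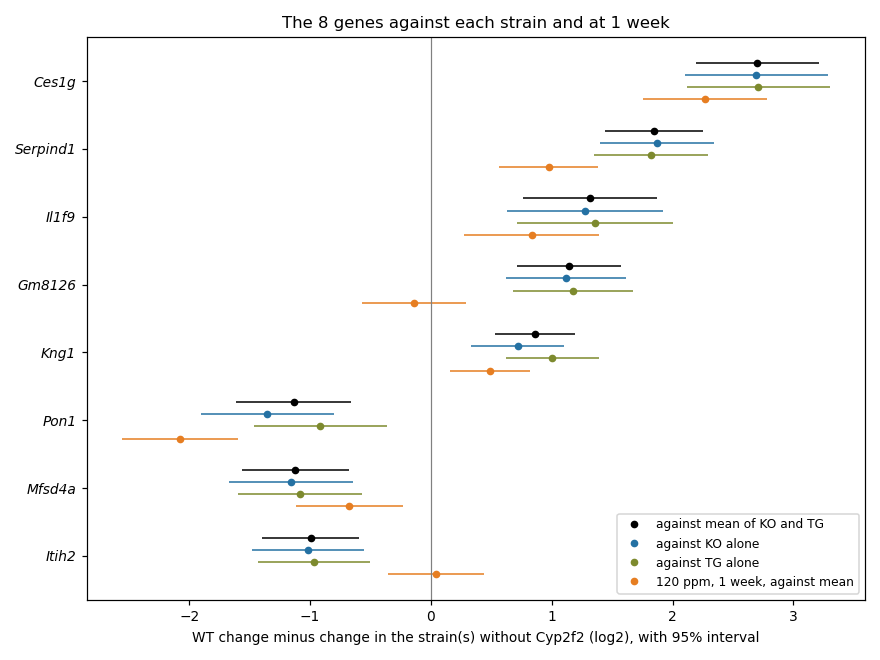
Log2 response differences (x axis) with 95% intervals for the 8 genes (y axis): WT minus the mean of KO and TG, WT minus KO alone and WT minus TG alone at 4 weeks, and WT minus the mean of both at 1 week. Ces1g and Serpind1 lie far from 0 in all 4, and Gm8126 and Itih2 lie near 0 at 1 week (-0.14 and 0.04).

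At 40 ppm for 4 weeks, a lower dose set against the same control animals, 7 genes passed in the strain interaction (0.0409%). Ces1g had an interaction of 2.34 (adjusted p = 1.4e-09) beside 2.70 at 120 ppm, Serpind1 1.38 (adjusted p = 2.2e-05) beside 1.85, Gm8126 1.10 (adjusted p = 0.012) beside 1.15, Pon1 -1.11 (adjusted p = 0.038) beside -1.13 and Itih2 -1.09 (adjusted p = 0.0039) beside -0.99. The WT group means at 40 ppm were 7.71 ± 0.30 for Ces1g and 6.20 ± 0.23 for Serpind1 (SD, n = 5), between control and 120 ppm. Kng1 was at 0.05, Il1f9 at 0.83 (adjusted p = 0.90) and Mfsd4a at -0.89 (adjusted p = 0.18), and none of these 3 passed. The other genes that passed at 40 ppm were Wif1, an inhibitor of Wnt signalling, which stood at 0.71 at 120 ppm (adjusted p = 0.12), and Aspg, at -0.46 (adjusted p = 0.91). The difference between doses was not tested, the Pon1 call at 40 ppm was kept in 10 of 30 fits that left out 1 animal, and the count was 3 without WT 40 ppm animal 3 and 4 in 11 other such fits.

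Just outside the threshold stood 5 genes, chosen by their p after the values were seen. Ccl20, a chemokine of airway epithelium that attracts dendritic cells and lymphocytes, was at 5.46, 5.61, 5.59, 6.25 and 4.38 in exposed WT lung and at 4.27, 4.34, 4.53, 4.08 and 4.84 in WT controls. Animal 5 lay among the controls and the other 4 above all 25; the interaction was 1.10 (adjusted p = 0.055). Krtap5-5, a hair keratin-associated gene that was dim in all 6 groups, was at 0.58 (adjusted p = 0.055). Asgr1, a subunit of the asialoglycoprotein receptor, was at 5.95, 5.15, 5.87, 5.30 and 5.71 in WT controls and at 4.82, 4.29, 3.81, 3.76 and 3.54 after exposure, without overlap. The Asgr1 interaction was -1.70 (SE 0.40, adjusted p = 0.083), with WT lung falling by 1.55 (adjusted p = 0.0040). Gp2, a glycoprotein that marks cells which take up bacteria over lymphoid tissue, had the largest interaction of any gene, 2.78, but an SE of 0.66 (adjusted p = 0.089). Gp2 stood at 5.77, 6.64, 7.95, 7.19 and 5.83 in exposed WT lung, above all 25 others; exposed KO animals ran from 2.57 to 5.19 and were the most spread group. Kcnmb4 was at 7.15, 7.05, 6.61, 6.91 and 7.07 after exposure and between 5.98 and 6.36 in WT controls, with an interaction of 0.77.

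A simple count of animals gave a wider set. In 375 genes (2.19%) the 5 exposed WT mice did not overlap the 5 WT controls, 210 higher (1.23%) and 165 lower (0.965%). In 33 genes (0.193%) they lay outside all 25 other animals of the 6 groups, 28 above (0.164%) and 5 below (0.0292%). Sptssb, a subunit of the enzyme that starts sphingolipid synthesis, and Wfdc3, a member of the whey acidic protein family, were among the 28, with interactions of 1.14 (adjusted p = 0.60) and 0.79 (adjusted p = 0.96).

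Within WT mice alone, 75 genes passed (0.439%), 51 up (0.298%) and 24 down (0.14%), against 4 in KO mice (0.0234%) and 2 in TG mice (0.0117%), 1 up and 1 down (0.00585% each). Of these 75, 8 passed in the interaction and 67 did not. The count was 48 without WT 120 ppm animal 2, 47 without animal 4 and 209 with array weights. Several of the 67 had larger WT changes than most of the 8, with KO and TG changes of the same sign. Tex11, a meiosis gene, was at 1.77 in WT, 0.88 in KO and 0.92 in TG mice. Spon2, a matrix protein, was at -1.64, -1.25 and -0.83, and the hormone gene Adm at -1.27, -0.56 and -0.56. Cdkn1a, the p21 inhibitor of the cell cycle and a target of p53, was at -1.26, -0.42 and -0.86, and only the WT changes of these 4 genes passed. Others were near 0 outside WT: Aoc1, a diamine oxidase that degrades histamine, was at 1.38, 0.09 and 0.10 with an interaction of 1.29 (adjusted p = 0.54), and Retnla, a product of alternatively activated macrophages, at 1.25, -0.22 and -0.08 with an interaction of 1.40 (adjusted p = 0.33). The WT call of Retnla was kept in 1 of 10 fits that left out 1 animal, that of Aoc1 was lost without WT control animal 2 (adjusted p = 0.106) and that of Adm without WT control animal 1 or WT 120 ppm animal 4 or 5 (adjusted p up to 0.165).

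**Figure D3:**
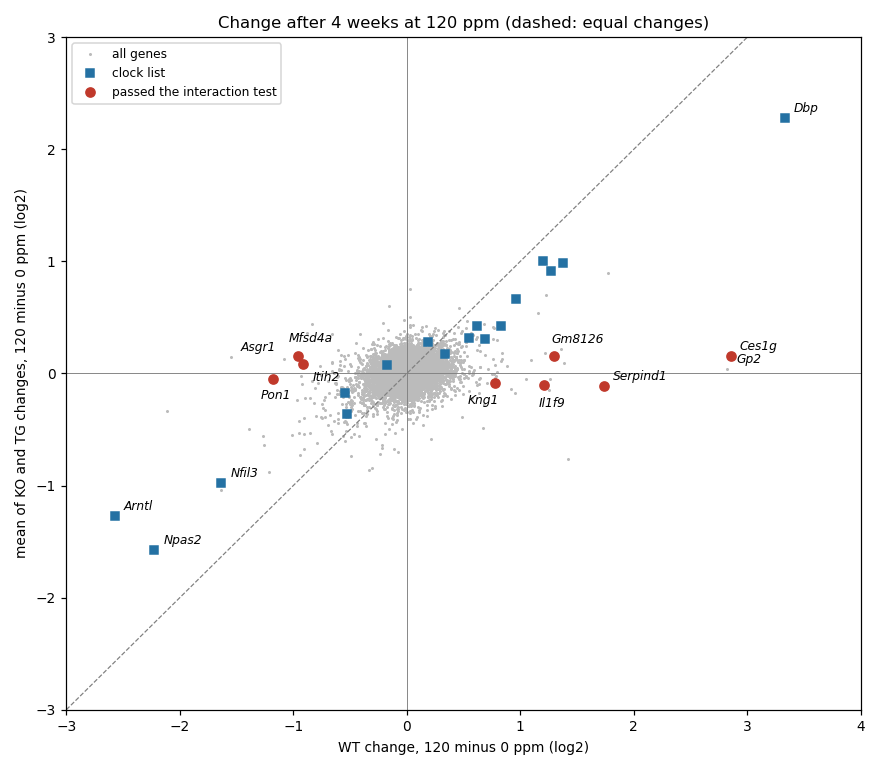
Log2 change from 0 to 120 ppm at 4 weeks in WT lung (x axis) against the mean of the KO and TG changes (y axis), 1 grey point per gene for all 17097 genes, with the 8 genes that passed in red, clock genes as squares and a dashed line of equal change. The 8 genes lie near 0 on the y axis, while clock genes such as Dbp (3.33 in WT) and Arntl (-2.57) lie far from 0 on both axes.

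Genes of the circadian clock had the largest rise and the largest fall of the WT lung, and some passed in all 3 strains. The clock is a loop in which Arntl pairs with Clock or Npas2 to switch on Per, Cry, Nr1d and PAR bZIP genes through E-boxes, and the Nr1d repressors act back on Arntl through RORE sites. Of 17 measured members, 6 rose and 3 fell in WT lung. In KO lung 2 rose and 2 fell, and in TG lung 1 rose and 1 fell. Over all genes the shares that rose and fell were 0.298% and 0.14% in WT, 0.0117% each in KO and 0.00585% each in TG lung. In the interaction 0 of the 17 passed by limma, with 4 at an unadjusted p under 0.05, beside 3.56% of all genes. Leaving out 1 animal gave 0 to 3 that rose and 1 to 2 that fell in KO lung, 0 to 1 and 0 to 1 in TG lung, and 6 to 7 and 3 in WT lung. The median interaction was 0.20, between -1.30 and 1.05, beside -0.01 over all genes. No hour of death was available to set beside these values, and its part was not tested.

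Arntl, the positive arm, was at 7.75, 7.51, 7.70, 7.60 and 7.89 in WT controls and at 6.17, 5.16, 5.19, 4.43 and 4.64 after exposure. In KO mice it was at 7.77, 7.78, 7.43, 7.40 and 7.53 in air and at 6.57, 6.35, 5.55, 6.63 and 5.55 after exposure, and in TG mice at 7.87, 7.73, 6.94, 7.30 and 7.33 in air and at 6.77, 6.68, 6.05, 6.65 and 5.54 after exposure. Exposed animals were below all controls of their strain in each of the 3 strains, and 4 of the 5 exposed WT animals were below all 25 others. The changes were -2.57 in WT (adjusted p = 9.7e-10), -1.45 in KO (adjusted p = 0.017) and -1.10 in TG mice (adjusted p = 0.24), and the interaction of -1.30 (SE 0.35) had an unadjusted p of 0.00043 and an adjusted p of 0.32. Its partner Npas2 changed by -2.22, -1.72 and -1.43, all 3 passing. The KO call of Arntl was kept in 5 of 10 fits that left out 1 animal and the TG call of Npas2 in 1 of 10. That TG call was also lost with the median over probe sets, in a fit of the compared arrays alone and with an intensity trend. A second Npas2 probe set fell from 4.32 to 3.70 in WT lung, both dim, with an interaction of -0.20. A second Arntl probe set had an interaction of -0.63.

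Dbp, a PAR bZIP activator that binds D-boxes, moved the opposite way. It was at 5.70, 6.57, 5.09, 6.16 and 5.18 in WT controls and at 8.26, 9.11, 9.17, 9.33 and 9.50 after exposure. KO controls were widely spread, at 4.27, 4.83, 6.75, 6.72 and 6.25, and exposed KO animals stood at 7.87, 7.91, 8.51, 8.13 and 8.59, above all of them. Dbp rose in all 3 strains, by 3.33 in WT, 2.44 in KO (adjusted p = 0.0019) and 2.12 in TG mice (adjusted p = 0.036), and its interaction of 1.05 had an unadjusted p of 0.048. The KO call was lost without KO control animal 1 (adjusted p = 0.0952), and the TG call was kept in 3 of 10 fits that left out 1 animal. Its relatives Hlf and Tef rose in WT lung by 1.20 and 0.96, beside 0.96 and 0.75 in KO and 1.04 and 0.58 in TG mice; the KO call of Tef was kept in 4 of 10 such fits (adjusted p up to 0.391). Nfil3, the repressor of the same D-box genes, fell by 1.63 in WT lung, beside -0.82 and -1.13. The repressors Nr1d2 and Per3 rose by 1.37 and 1.27 in WT lung, and Bhlhe41 by 0.68 from a dim level.

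**Figure D4:**
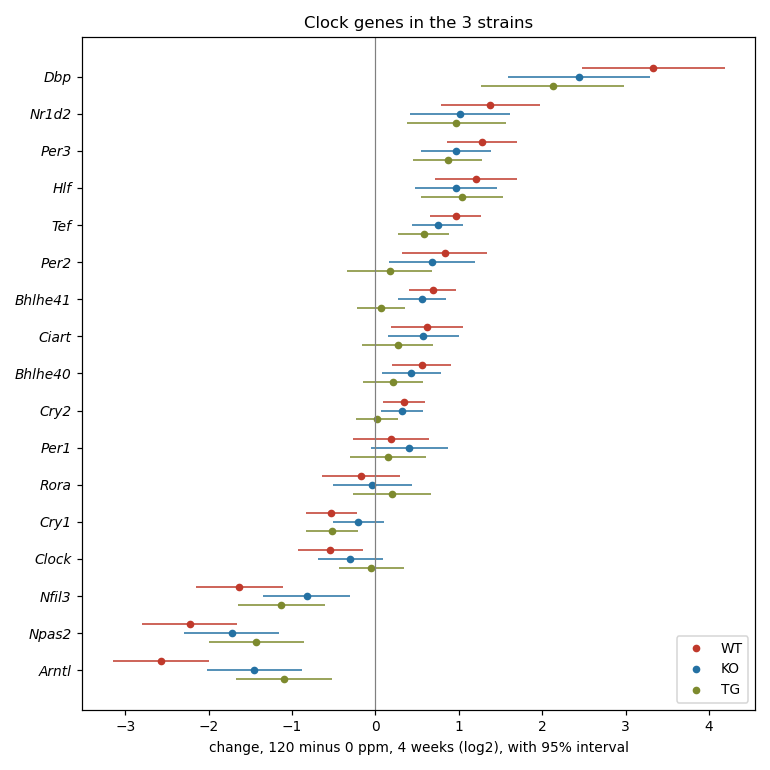
Log2 change from 0 to 120 ppm at 4 weeks (x axis) of 17 clock genes (y axis) in WT, KO and TG lung, with 95% intervals. Dbp is far above 0 and Arntl and Npas2 far below 0 in all 3 strains, with the WT value farthest out for each of the 3 genes.

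The windows of 3 clock genes, picked because they hold a match, are shown in the same form, strand and build as above. They are Arntl at chr7:113207261-113207560 (plus strand, 1 of 2 listed starts) with TAGGTCA in capitals, Tef at chr15:81802423-81802722 (plus strand) with CACGTG, and Per3 at chr4:151044616-151044915 (minus strand) with TTATGTAA.
Arntl: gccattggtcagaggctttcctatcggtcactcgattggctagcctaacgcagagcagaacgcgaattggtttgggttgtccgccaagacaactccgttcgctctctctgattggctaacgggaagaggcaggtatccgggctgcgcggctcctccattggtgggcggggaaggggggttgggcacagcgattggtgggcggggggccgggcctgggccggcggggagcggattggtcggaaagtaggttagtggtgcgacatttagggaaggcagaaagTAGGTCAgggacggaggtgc
Tef: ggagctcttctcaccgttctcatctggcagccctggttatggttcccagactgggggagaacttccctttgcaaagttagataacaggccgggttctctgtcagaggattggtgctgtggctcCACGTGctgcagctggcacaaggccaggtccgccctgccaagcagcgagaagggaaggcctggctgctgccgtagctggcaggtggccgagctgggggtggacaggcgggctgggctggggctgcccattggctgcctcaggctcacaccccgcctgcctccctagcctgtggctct
Per3: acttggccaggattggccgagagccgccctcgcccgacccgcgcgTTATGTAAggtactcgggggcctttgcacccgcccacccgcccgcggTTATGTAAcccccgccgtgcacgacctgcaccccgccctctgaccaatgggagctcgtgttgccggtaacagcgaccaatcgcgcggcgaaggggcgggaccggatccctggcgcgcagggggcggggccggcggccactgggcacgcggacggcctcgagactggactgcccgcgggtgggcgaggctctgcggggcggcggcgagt
The match of Arntl begins 30 bases after the start and that of Tef 127 bases before it, and Per3 has 2 matches, 205 and 158 bases before its start. All 9 clock genes that passed in WT lung had a window. Of these, 2 held the E-box letters, 1 the D-box and 2 the RORE core, beside 7.15%, 0.938% and 2.61% of all windows. Dbp, Npas2, Nr1d2 and Hlf held none of these 3 motifs.

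Genes of xenobiotic and oxidative defence gave few calls. Cytochromes P450, epoxide hydrolases and conjugating enzymes act on styrene and its oxide, and the Nrf2 transcription factor switches on glutathione and quinone-reducing enzymes when electrophiles accumulate. Of 25 measured xenobiotic enzymes, 1 passed in the interaction, Ces1g, and the median was near 0. Of 25 Nrf2 and glutathione genes, 0 passed by limma and 3 had an unadjusted p under 0.05; the median was 0.11, between -0.29 and 0.67, and 22 of 25 lay above 0, beside 47.5% of all genes. Cbr3, a carbonyl reductase, rose by 0.71 in WT lung (adjusted p = 0.0021), beside 0.07 and 0.00 in KO and TG mice, with an interaction of 0.67 (adjusted p = 0.20). Nqo1, a quinone reductase, rose by 0.76 in WT lung (adjusted p = 0.022), beside 0.19 and 0.44, a call kept in 4 of 10 fits that left out 1 animal. Nqo1 and Gpx2, a glutathione peroxidase, were also higher in WT than in the other lines in air, by 1.26 and 1.36. Gpx2 changed by 0.69 in WT lung (adjusted p = 0.11).

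In all, 40 of 42 gene lists, 16 of processes and 26 of cell types, had no member that passed in the interaction; the other 2 held Ces1g and Pon1. Medians of the p53, hypoxia, unfolded protein, sterol, PPAR, heat shock, interferon, complement and ribosomal lists lay between -0.18 and 0.15. Immediate early genes had a median of -0.18, with 6 of 23 above 0; Fosb was at -0.75 (unadjusted p = 0.0098) and Nr4a3, an orphan nuclear receptor, at -0.89, having fallen by 1.39 in WT lung (adjusted p = 0.010). That call of Nr4a3 was lost without WT control animal 2 or WT 120 ppm animal 4 (adjusted p up to 0.157) and with the median over its probe sets. Glucocorticoid-responsive genes had a median of -0.13, with Fkbp5 at -0.24 and the clock gene Per1 at -0.09.

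Of the cell type markers, Pon1 in the liver list was the one that passed in the interaction. The medians of the club, ciliated, mucous, alveolar type II and type I lists were -0.04, 0.18, 0.10, 0.09 and 0.01. Clca1 and Agr2, mucous cell genes, were at 2.18 (unadjusted p = 0.076) and 1.30 (unadjusted p = 0.025). Neuroendocrine markers Resp18 and Ghrl were at 0.79 and 0.70, the only 2 of 5 above 0 in a list with a median of -0.02. The neutrophil granule gene Camp was at -1.24 (unadjusted p = 0.021), in a list with a median of 0.05 and 9 of 16 above 0. None of these genes passed. Fibroblast and matrix genes had a median of -0.24, with 3 of 17 above 0, and endothelial genes one of -0.11, with 2 of 17 above 0. Mesothelium markers were above 0 in 8 of 8 (median 0.24), B and plasma cell markers in 10 of 11 (median 0.19) and skeletal muscle markers in 0 of 11 (median -0.22).

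Markers of other tissues were checked as well. The median of 8 cardiac muscle markers was -0.53, 1 of 8 lying above 0, with Nppa at -1.77 (unadjusted p = 0.15), and that of 7 smooth muscle markers was -0.31, with 0 of 7 above 0 and Myh11 at -0.55 (unadjusted p = 0.028). The mean cardiac level ranged from 6.28 to 8.50 among WT controls and from 6.15 to 7.70 among exposed WT animals, and the 11 skeletal muscle markers had means from 3.33 to 4.58 in WT animals. The 12 liver markers had means from 4.80 to 5.31 in all 30 animals and a median interaction of 0.05, with Pon1 and Asgr1 as the lowest. The part of such tissue in the 8 genes was not tested.

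After 1 week at 120 ppm, in other animals, the same interaction had 1166 genes (6.82%), 759 higher (4.44%) and 407 lower (2.38%), beside 8 at 4 weeks. Of the 759, 552 (72.7%) lay above 0 at 4 weeks, beside 47.5% of all genes, their median going from 0.69 to 0.11. Of the 407, 358 (88%) lay below 0, beside 52.5% of all genes, with medians of -0.52 and -0.13. Both sets were chosen by their week 1 values, and the part of that choice in the smaller medians was not tested. The 1-week count moved between 516, without WT control animal 2 of that week, and 2270, without WT 120 ppm animal 3; it was 760 without WT 120 ppm animal 2 and 609 without animal 5. A direct test of 4 against 1 week gave 98 genes (0.573%), 2 higher (0.0117%) and 96 lower at 4 weeks (0.562%), with 248 and 57 genes without WT 120 ppm animals 3 and 5 of week 1.

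The 8 genes differed in how they compared with week 1. Ces1g was at 6.85, 7.43, 8.75, 7.45 and 6.25 in WT lung after 1 week at 120 ppm and had an interaction of 2.27 (adjusted p = 2.2e-09), and the time difference of 0.43 did not pass. Serpind1 was at 5.25, 5.54, 5.60, 5.70 and 5.30 after 1 week, with an interaction of 0.97 (adjusted p = 0.00093) and a time difference of 0.87 (adjusted p = 0.25). Pon1 was lower still in week 1, at 8.30, 8.49, 10.51, 9.54 and 8.49, with an interaction of -2.08 (adjusted p = 3.0e-09) and a time difference of 0.94 (adjusted p = 0.34). Mfsd4a was at -0.67 in week 1 (adjusted p = 0.049), a call kept in 10 of 30 fits that left out 1 animal. Il1f9 and Kng1 were at 0.83 and 0.49 and did not pass in week 1.

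Gm8126 was the exception. It was at 2.89, 3.14, 3.41, 3.39 and 2.98 in WT lung after 1 week at 120 ppm and at 2.80, 3.40, 3.18, 3.45 and 3.03 in the week 1 WT controls, overlapping and dim. Its interaction was -0.14 in week 1, and the difference between times, 1.29, passed (adjusted p = 0.0175), except without WT 120 ppm animal 5 of week 1 or animal 4 of week 4 (adjusted p up to 0.0520). Itih2 was at 0.04 in week 1, with a time difference of -1.04 (adjusted p = 0.076). The other gene higher at 4 weeks was Bcl2l2, an inhibitor of apoptosis, with a difference of 0.38 (adjusted p = 0.045). That call was kept in 22 of 60 fits that left out 1 animal and in 3 of 9 other settings of the processing (adjusted p up to 0.771).

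Genes of dividing cells were higher at 1 week and did not pass at 4. Of 30 mitosis genes, 26 passed at 1 week, all higher, with a median of 1.63; at 4 weeks 0 passed by limma, 4 had an unadjusted p under 0.05 and the median was -0.22, 7 of 30 being above 0. In the test between times, 22 were lower at 4 weeks, with a median difference of -1.82. Of 26 DNA replication genes, 23 passed at 1 week (median 0.94), 0 at 4 weeks (median -0.06), and 13 were lower at 4 weeks. Over all genes, 4.44% passed as higher at 1 week and 0.562% as lower at 4 weeks in the test between times. At 4 weeks 3.56% of all genes had an unadjusted p under 0.05 and 47.5% lay above 0. Cdk1, the kinase that drives entry into mitosis, went from 2.68 to -0.07 and Pbk, a mitotic kinase, from 2.53 to -0.44. Birc5, Cep55 and Ccna2, of the chromosomal passenger complex, cell abscission and cyclins, had time differences of -2.67, -2.66 and -2.48. Without WT 120 ppm animal 5 of week 1 the numbers lower at 4 weeks were 13 mitosis and 6 replication genes; without animal 3 the replication number was 23 and without animal 1 it was 8.

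Mki67 is a marker of proliferation. It was at 4.67, 4.91, 5.25, 5.37 and 4.49 in WT controls of week 1 and at 6.94, 5.77, 5.61, 6.19 and 7.65 after 1 week at 120 ppm, without overlap. At 4 weeks it was at 6.29, 5.80, 5.09, 5.82 and 6.11 in WT controls and at 5.02, 4.32, 5.53, 5.33 and 5.27 in exposed WT lung. Exposed animals were above all controls at 1 week, and at 4 weeks the groups overlapped with the exposed mean lower. The interaction was 1.39 at 1 week (adjusted p = 0.029), a call lost without animal 2 or 5 of the WT controls or animal 1 or 5 of the exposed WT mice of that week (adjusted p up to 0.143) and in a fit of the compared arrays alone (adjusted p = 0.0608). It was -0.50 at 4 weeks (unadjusted p = 0.24), and the difference of -1.89 did not pass (adjusted p = 0.19).

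**Figure D5:**
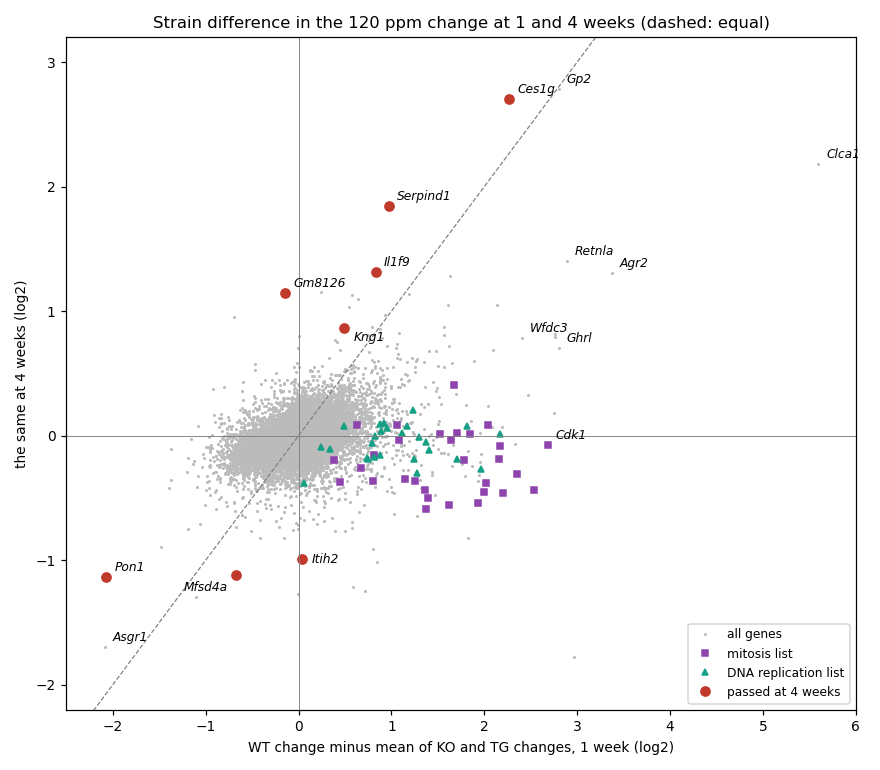
Strain interaction at 120 ppm after 1 week (x axis) and 4 weeks (y axis), log2, 1 grey point per gene for all genes, with mitosis genes as purple squares, DNA replication genes as green triangles the 8 genes that passed at 4 weeks in red and a dashed line of equal values. Mitosis and replication genes spread to the right along the line at 0, with medians of 1.63 and 0.94 on the x axis and -0.22 and -0.06 on the y axis, while Ces1g keeps its value on both axes.

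Other genes, chosen for high interactions at 1 week, were followed to 4 weeks. The part of that choice in smaller later values was not tested. Ghrl, the ghrelin hormone gene, went from 2.81 to 0.70 and Wfdc3 from 2.41 to 0.79, and their time differences of -2.10 (adjusted p = 0.019) and -1.62 (adjusted p = 0.015) passed; the first was lost without WT 120 ppm animal 1 or 2 of week 1 (adjusted p up to 0.0806) and the second without animal 2 or 5 of that week (adjusted p up to 0.0596). Wfdc3 nevertheless stood at 5.36, 5.58, 5.67, 5.65 and 5.69 in WT lung exposed for 4 weeks and at 4.89, 4.72, 4.79, 4.68 and 4.88 in its controls, above all 25 others without overlap. Ghrl stood at 4.75, 4.90, 4.58, 5.22 and 4.96 against 3.95, 4.09, 4.43, 4.76 and 4.45, overlapping through 1 control. Clca1 went from 5.60 to 2.18, Agr2 from 3.38 to 1.30, Retnla from 2.89 to 1.40 and the neutrophil gene Cd177 from 2.75 to 0.18, without a tested difference that passed. Ccl8, a monocyte chemokine, went from 2.47 to 0.32, a difference of -2.14 (adjusted p = 0.045) kept in 27 of 60 fits that left out 1 animal. Gp2 was the same size at both times, 2.80 and 2.78.

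Among the 10 lowest genes of week 1, Asgr1 went from -2.09 to -1.70 and Pon1 from -2.08 to -1.13. Nr4a3 was at -1.48 and -0.89 and Itih5, a further inter-alpha-trypsin inhibitor chain, at -1.19 and -0.75. With the median over its probe sets the week 1 call of Nr4a3 was lost (adjusted p = 0.351) and its sign reversed. The other 6 were nearer 0 at 4 weeks, from Slc5a12, a lactate transporter, at -0.42 to Igfbp3, a binding protein of insulin-like growth factors, at -0.03, having been between -1.39 and -1.13 at 1 week. In 30 fits that left out 1 animal, their week 1 calls were kept in 17 (Hecw2) to 29 (Igfbp3). All 10 were chosen for extreme values in week 1, and the part of that choice in the smaller later values was not tested.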

How the data were processed

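The deposited series matrix gave log2 values for 45141 probe sets on 90 arrays that, per the submitters' processing notes, involved Partek and RMA, versions not stated. The authors' log2 values were used as deposited. Control probe sets (104) and those with several genes (551) or no listed gene (15588) were left out, and the brightest probe set by mean stood for each of 17097 genes (7180 had several).

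Groups came from the labels. One limma fit (3.58.1, R 4.3.3) over all 18 group means and 72 residual degrees of freedom gave each comparison, with eBayes and Benjamini-Hochberg adjustment over all genes at 0.05; it was tested on simulated data. The members and lists were chosen with earlier results of these data known. Named genes were the extremes among those that passed each comparison, and otherwise those with the smallest p in each list, plus 13 fixed genes. Alternatives covered normalization, dim genes, probe set choice, arrays fitted, variance model, array weights, replicate block, poly-A covariate and each animal left out. Symbols came from GEO's platform annotation (16936 genes matched RefSeq by Entrez identifier); promoter windows are RefSeq's.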

Additional observations from a re-analysis of the deposited data

Results flagged for a closer look

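Response differences between strains that passed the test of the difference itself were those of Ces1g (2.70), Serpind1 (1.85), Il1f9 (1.32), Gm8126 (1.15), Kng1 (0.86), Pon1 (-1.13), Mfsd4a (-1.12) and Itih2 (-0.99), as WT change minus the mean of the KO and TG changes at 120 ppm for 4 weeks. Between the times, Gm8126 (1.29) and Bcl2l2 (0.38) had a higher strain interaction at 4 weeks than at 1 week, and Pbk (-2.97), Cdk1 (-2.76), Birc5 (-2.67), Cep55 (-2.66), Ccna2 (-2.48), Ghrl (-2.10) and Wfdc3 (-1.62) a lower one. The Bcl2l2 call was kept in only 3 of 9 other settings of the processing.

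Single animals stood far from the other 4 of their group in 5 of 102 groups examined. The cutoff used flags about 1 in 20 groups when no animal is unusual, and what set these animals apart was not tested. Itih2 was 3.85 in TG control animal 3 (next 4.12) and 3.62 in TG 120 ppm animal 2 (next 4.17). Ccl20 was 4.67 in KO 120 ppm animal 3 (next 4.04). Krtap5-5 was 3.10 in TG control animal 4 (next 2.80), and Gp2 was 2.43 in TG control animal 3 (next 3.18). Itih2 and Gp2 thus share TG control animal 3, whose array had the lowest median (4.55) and the lowest array weight (0.309) of the 30. Without that animal the strain interaction had 9 genes, the same 8 and Ccl20.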

How the results depend on the processing

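Counts below are genes that passed. In this section, without dim genes means that genes with a mean over all arrays under 5.05 were left out, a higher level than the dim level of 4.42. Serpind1, for example, was left out although none of its group means was dim. The strain interaction (8) gave 0 without dim genes, 21 in a fit of the compared arrays alone and 31 under array weighting. It gave 13 when poly-A controls were a covariate and 21 without 4 arrays of low weight (chosen after seeing the data). None of those 4 was among the 30 arrays of this comparison, so its log2 values stayed the same and only the shared estimate of the spread moved. WT minus KO (3) gave 0, 6 and 6 and WT minus TG (5) gave 0, 12 and 33 without dim genes, with the compared arrays alone and under array weighting. The WT change (75) gave 209 with array weights and 118 without the low-weight arrays. The KO change (4) gave 2 with the compared arrays alone and 15 with array weights. The TG change (2) gave 1 after renewed quantile normalization, 0 with the median of probe sets, with the compared arrays alone and with an intensity trend, 106 with array weights and 10 with the replicate block. The control difference (26) gave 68 under array weighting, 43 for the poly-A fit and 40 without the low-weight arrays. The 40 ppm interaction (7) gave 0 without dim genes and 27 with array weights. The 1-week interaction (1166) gave 218 with the compared arrays alone, 722 under array weighting and 2057 for the poly-A fit. The time difference (98) gave 28 without dim genes, 61 with the compared arrays alone, 191 under array weighting, 154 for the poly-A fit and 248 without the low-weight arrays. The dim filter tested 10258 genes and removed 7 of the 8; Pon1, tested, had an adjusted p of 0.104. For the other changes in count the cause was not tested. Leaving out 1 animal gave 4 to 11 genes in the interaction, 47 to 69 in WT, 1 to 6 in KO, 0 to 2 in TG, 2 to 4 against KO, 2 to 6 against TG, 0 between TG and KO, 19 to 29 between controls, 3 to 10 at 40 ppm, 516 to 2270 at 1 week and 57 to 248 between times. Of 8049 single-gene values of the interaction, 16 lost and 41 gained a call and 0 called values changed sign. Animals of one number in different groups tended to deviate together. Their median correlation was 0.109 over 75 pairs (38 over 0.1), beside -0.032 over 300 pairs of unlike number. Of 30 animals, 15 were closest to their own number among the 5. The labels call the numbers biological replicates only, and what lies behind the pattern was not tested. With the replicate block the interaction had 9 genes, the same 8 and Asgr1. Dim levels limit genes such as Kng1, Gm8126, Itih2 and Krtap5-5.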

Other observations

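Over all 45037 probe sets that are not controls, 13 passed in the strain interaction. They were the 8 genes above, Csn2, a milk casein gene (0.63, adjusted p = 0.0039), and Smim38 (0.77, adjusted p = 0.031), each from a probe set that was not its gene's brightest, and 3 probe sets with no listed gene, at 1.40, 1.31 and -1.59.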
